A study of Mus musculus with 7 samples.

Results

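The genes described here are 10 genes of endoplasmic reticulum (ER) stress and of its relatives in the liver: Hspa5, Hsp90b1, Pdia4, Sdf2l1, Dnajb9, Herpud1, Ern1, Atf6, Xbp1 and Creb3l3. They were chosen by name, with earlier results of these data known. In all, 11 of the 55681 probes of the array read them, with 2 probes for Dnajb9 and 1 for each of the others. They are 10 of 36492 gene names on the array and 10 of the 20012 genes that could be tested. RNA was measured in livers of 3 wild-type C57BL/6 mice (WT) and of 4 C57BL/6 mice with the SHIVA mutation of Sox17, all of them female, 8 to 12 weeks old and fasted for 24 h, with 1 array for each mouse. SHIVA mice descend from a chemical mutagenesis screen and carry, on 1 of their copies of Sox17, a change in the DNA-binding HMG domain of this transcription factor. They form a single line, and since every mouse was fasted the arrays compare genotypes and not fed with fasted livers. Whole livers were used, so fewer cells of a type and less RNA per cell cannot be told apart.

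All 7 arrays lay on 1 slide, WT in row 1 and SHIVA in row 2, so place on the slide and genotype cannot be told apart. On each array 44.5% to 48.8% of the probes exceeded background clearly, no spot was saturated, and the correlation between any pair of arrays was at least 0.972. Precision is limited by how few arrays there are. The 8 hepatocyte markers were well above background on all 7 arrays. The probe for Sox17 lies on chromosome 1 of mm9 from 4481503 to 4481562, and its log2 signal was 4.52, 3.41 and 3.92 in WT and 4.62, 4.46, 4.76 and 4.70 in SHIVA livers. The ranges overlapped and the gene was not called (log2 fold change 0.69, SE 0.25, adjusted p = 0.279). Its signal was low, and well above background on 2 WT and 4 SHIVA arrays. This probe does not show whether an mRNA carries the mutation.

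Proteins that a cell secretes or places in membranes are folded in the ER, and hepatocytes, which make most plasma proteins, carry a large load of them. When unfolded proteins accumulate, sensors in the ER membrane start the unfolded protein response. The sensor IRE1 (Ern1) splices the mRNA of Xbp1, ATF6 is released from the membrane by proteolysis and enters the nucleus, and PERK slows translation while favouring that of ATF4. Their joint targets include chaperones such as BiP (Hspa5), folding enzymes and the machinery that returns misfolded proteins to the cytosol for degradation. CREB3L3, also called CREBH, is a liver-enriched relative of ATF6 that is cut in the same way. It is known for acute phase genes and, in fasting, for genes of lipid and glucose metabolism.

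Splicing and proteolysis are not read by these arrays, which give mRNA levels alone. Values below are log2 signals after quantile normalization, and a log2 fold change is the SHIVA mean minus the WT mean. A gene was called when its p from limma, adjusted by Benjamini-Hochberg over all genes tested, was under 0.05, and every adjusted p given is of this kind.

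None of the 10 genes was called between WT and SHIVA livers: limma called 0 of 10, beside 0.375% of all genes tested (75 of 20012, 37 higher and 38 lower). At an unadjusted p under 0.05 the count was likewise 0 of 10, beside 13.3% of all genes. In every one of them the WT and SHIVA values overlapped, whereas they did not overlap in 12.2% of all genes tested. Mean signals were higher in SHIVA livers for 8 genes and lower for 2, Creb3l3 and Herpud1, while 48.8% of all genes tested had a positive log2 fold change. The median log2 fold change was 0.14 over the 10 genes and -0.01 over all genes tested. All 10 genes were well above background on all 7 arrays, so none was lost to the filter on dim probes.

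Promoters of ER stress genes are known for a short element, the ER stress response element (ERSE), to which ATF6 and the factor NF-Y bind. In the 250 bases before the transcription start, RefSeq promoters of GRCm38.p6 held the letters CCAAT and CCACG with any 9 bases between them, on either strand, in 37 of 32851 promoters, or 0.113%. Of the 9 genes with an entry in that table, 2 had a match, Hspa5 and Hsp90b1. A second form, ERSE-II, with the letters ATTGG, any 1 base and then CCACG, occurred in 10 promoters (0.0304%), among them that of Herpud1. The other 6 genes with an entry, Xbp1, Dnajb9, Creb3l3, Pdia4, Sdf2l1 and Ern1, held an exact match to neither. With at most 1 mismatch to the ERSE letters Pdia4 matched as well, as did 1.32% of all promoters. The window of Herpud1 ends with the ERSE letters up to their last base, and matches running past the start were not searched for. The matches are shown because they are rare among all promoters. Bases in capitals mark the match, all sequences run 5′ to 3′ on the strand of the gene, and the first is the whole window of Hspa5, chr2:34771840-34772089 on the plus strand.
Hspa5: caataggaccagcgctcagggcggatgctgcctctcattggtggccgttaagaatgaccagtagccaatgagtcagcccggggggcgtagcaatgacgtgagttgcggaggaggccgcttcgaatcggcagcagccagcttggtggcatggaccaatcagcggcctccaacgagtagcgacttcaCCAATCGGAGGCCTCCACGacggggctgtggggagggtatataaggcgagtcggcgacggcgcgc
Hsp90b1, distal: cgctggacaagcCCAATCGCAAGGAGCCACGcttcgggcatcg
Hsp90b1, proximal: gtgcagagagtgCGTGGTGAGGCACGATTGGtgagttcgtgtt
Herpud1: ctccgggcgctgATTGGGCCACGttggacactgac
Canx: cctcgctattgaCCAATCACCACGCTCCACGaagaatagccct

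The match of Hspa5 covers bases 65 to 47 before the start. Hsp90b1, on the minus strand of chromosome 10, has its distal match on the strand of the gene (stretch at chr10:86705626-86705668) and its proximal one on the opposite strand (chr10:86705521-86705563). In Herpud1 the match covers bases 52 to 42 (stretch at chr8:94386365-94386399, plus strand). Canx, a chaperone gene outside the 10, is shown for comparison (chr11:50325788-50325830, minus strand). The core of another element bound by XBP1 and ATF6, TGACGTGG, was found in 0.563% of promoters and in 0 of the 9 genes, and the cyclic AMP element TGACGTCA in 1.55% and again in 0. Matches to fixed letters are a description and do not show binding.

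Hspa5 encodes BiP, the main Hsp70 chaperone of the ER and the gene most often used to follow ER stress. Its probe, at chr2:34631913-34631972 of mm9, gave log2 signals of 11.85, 12.75 and 12.53 in WT livers and of 12.86, 12.44, 13.48 and 12.59 in SHIVA livers. WT replicate 1 was the lowest liver and SHIVA replicate 3 the highest, and the remaining 5 livers of both genotypes lay between 12.44 and 12.86. On average SHIVA exceeded WT by 0.47 on the log2 scale, with a standard error (SE) of 0.30 (adjusted p = 0.553). As a fold the difference was 1.38, with a 95% interval from 0.864 to 2.21. An increase of BiP mRNA of just over 2-fold, or a small decrease, was thus within the error of the measurement.

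Hsp90b1 encodes GRP94, the Hsp90 chaperone of the ER, and was read at chr10:86153770-86153829. Its values were 12.74, 13.27 and 13.34 in WT and 13.24, 13.66, 13.65 and 13.27 in SHIVA livers. Here, too, WT replicate 1 was the lowest liver, whereas SHIVA replicates 2 and 3 were the highest and the other SHIVA livers fell among the WT livers. The log2 fold change of 0.33 (SE 0.20, adjusted p = 0.528) corresponds to 1.26-fold, with an interval from 0.918 to 1.73. Pdia4, a disulfide isomerase of the ER read at chr6:47746516-47746575, had values of 9.12, 9.50 and 10.16 in WT and of 9.90, 9.94, 10.07 and 9.38 in SHIVA livers. The WT livers spanned over 1 log2 unit and enclosed all of the SHIVA values. Its log2 fold change was 0.23 (SE 0.27, adjusted p = 0.766), and without WT replicate 1 it was -0.01.

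Sdf2l1 is a cofactor in the chaperone cycle of BiP, with its probe at chr16:17130426-17130485. It measured 8.97, 8.60 and 9.59 in WT and 9.21, 9.47, 9.66 and 9.10 in SHIVA livers. WT replicate 3 lay among the SHIVA livers, and the other WT livers lay below all of them. The difference on the log2 scale was 0.31 (SE 0.25, adjusted p = 0.653), 1.24-fold with an interval from 0.833 to 1.84. Without WT replicate 3 the genotypes no longer overlapped and the log2 fold change was 0.58, but the gene was not called in that fit. Fewer livers separate more easily, and the share of all genes without overlap was not counted for that fit.

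Dnajb9 (ERdj4), a J-domain partner of BiP and a well known target of spliced XBP1, has 2 probes. The brighter one, at chr12:45307313-45307372, gave 9.40, 9.23 and 9.10 in WT and 9.46, 9.29, 9.75 and 8.99 in SHIVA livers, with the SHIVA livers on both sides of the WT livers. Its log2 fold change was 0.13 (SE 0.20, adjusted p = 0.823). The other probe, which starts at base 417 of the transcript against base 1376 for the first, gave 6.75, 6.75 and 6.55 in WT and 6.68, 6.28, 7.17 and 6.16 in SHIVA livers. On it the log2 fold change was -0.11 (SE 0.25, adjusted p = 0.894 over all probes), so the probes differed in sign. On both of them SHIVA replicate 3 was the highest liver and SHIVA replicate 4 the lowest.

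Herpud1 organizes the degradation complex in the ER membrane and was read at chr8:96919117-96919176. Its log2 signal was 11.31, 11.02 and 11.47 in WT and 11.08, 11.15, 11.51 and 11.26 in SHIVA livers. The genotypes covered nearly the same range, and the log2 fold change was -0.02 (SE 0.17, adjusted p = 0.980). As a fold the interval ran from 0.755 to 1.30.

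**Figure D1:**
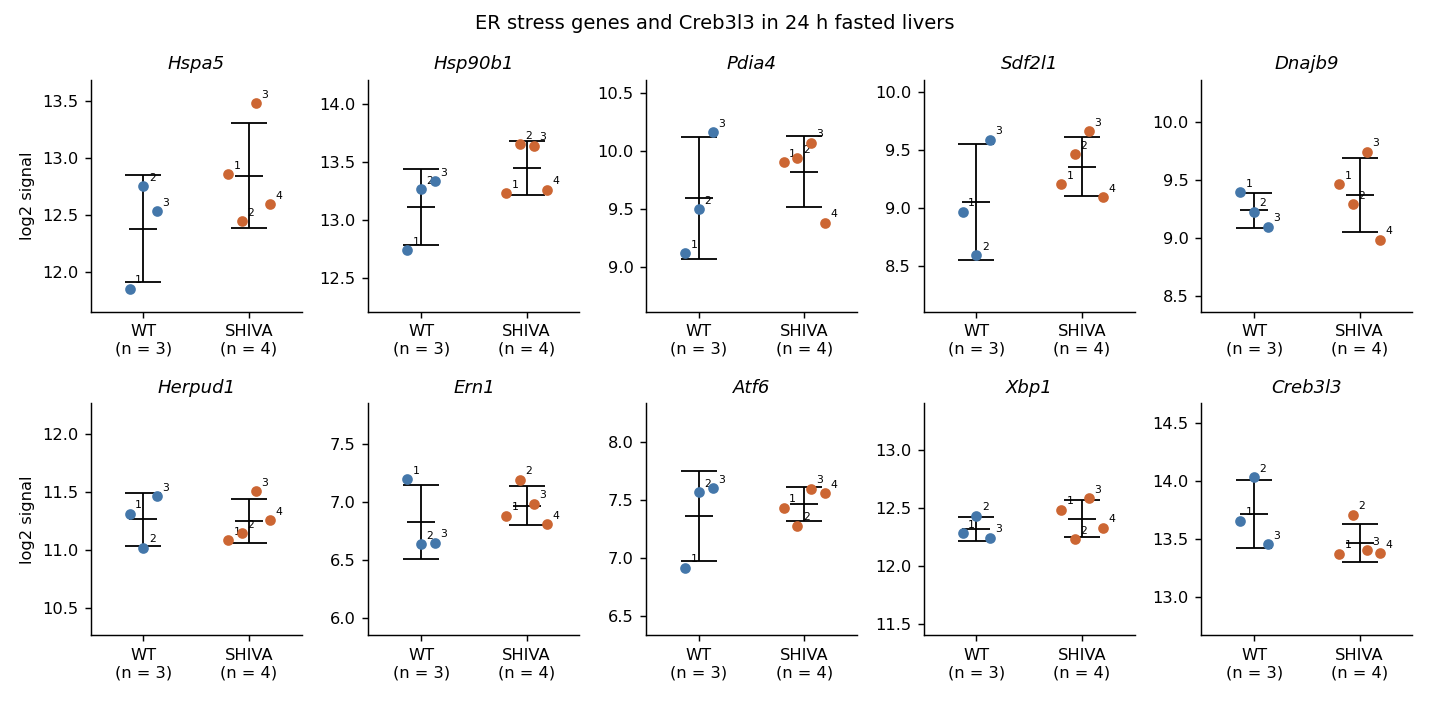
Log2 signal of each ER stress gene and of Creb3l3 in single livers of fasted WT (blue, n = 3) and SHIVA (orange, n = 4) mice. Small digits give the replicate number, long bars the mean and whiskers the SD, and each panel has its own axis. WT and SHIVA livers overlap in all 10 panels.

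Ern1 and Atf6 encode sensors. For Ern1, at chr11:106258948-106259007, the values were 7.19, 6.63 and 6.64 in WT and 6.88, 7.19, 6.98 and 6.81 in SHIVA livers. WT replicate 1 was the highest of all livers and the other WT livers were the lowest, so that without WT replicate 1 the genotypes did not overlap. For that smaller set, too, the share of all genes without overlap was not counted. SHIVA minus WT was 0.14 on the log2 scale (SE 0.19, adjusted p = 0.793) with all livers, and 0.33 without WT replicate 1, where the gene was not called either. Atf6, at chr1:172635311-172635370, measured 6.92, 7.57 and 7.60 in WT and 7.43, 7.28, 7.60 and 7.56 in SHIVA livers. WT replicate 1 was the lowest liver, and 3 of the 4 SHIVA livers lay below both other WT livers. The log2 fold change of 0.10 (SE 0.20, adjusted p = 0.866) turned to -0.12 without that liver.

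Xbp1, the transcription factor gene whose mRNA IRE1 splices, had the narrowest interval of the 10 genes. Its probe lies at chr11:5425816-5425875 and starts at base 1740 of the transcript. Spliced and unspliced forms were not read separately. Log2 signals were 12.28, 12.43 and 12.24 in WT and 12.48, 12.23, 12.58 and 12.33 in SHIVA livers. The SHIVA livers lay just below, within and just above the WT livers. The mean difference was 0.09 on the log2 scale (SE 0.15, adjusted p = 0.846), 1.06-fold with an interval from 0.843 to 1.34.

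Creb3l3, read at chr10:80547080-80547139, was on average lower in SHIVA livers. It measured 13.66, 14.03 and 13.45 in WT livers and 13.37, 13.71, 13.40 and 13.38 in SHIVA livers. In 3 of the 4 SHIVA livers the values lay within 0.03 of each other and below all WT livers, while SHIVA replicate 2 lay above 2 of the WT livers. The log2 fold change was -0.25 (SE 0.18, adjusted p = 0.607), or 0.842-fold with an interval from 0.634 to 1.12. Its sign was negative in all 7 fits that left out 1 liver, from -0.38 to -0.09. Without SHIVA replicate 2 the genotypes did not overlap, and the gene was still not called. Here as well the share of all genes without overlap was not counted.

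**Figure D2:**
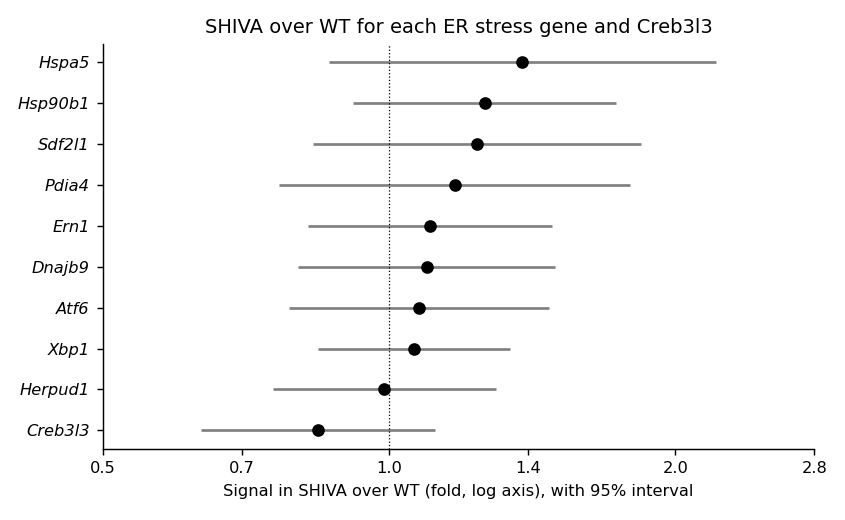
Fold of the normalized signal in SHIVA over WT livers on a log axis, with the 95% interval from limma, for each ER stress gene and Creb3l3. The points run from 0.842 for Creb3l3 to 1.38 for Hspa5, and every interval includes 1.

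Single livers stood out across several of the genes. SHIVA replicate 3 had the highest value of all livers for 5 of the 10 genes, Hspa5, Xbp1, Dnajb9, Herpud1 and Sdf2l1. WT replicate 1 had the lowest for 4, Hspa5, Hsp90b1, Pdia4 and Atf6, and WT replicate 2 for 3. Taken as the mean deviation of Hspa5, Hsp90b1, Pdia4 and Sdf2l1 from each gene's own mean, the chaperone level was -0.55, -0.20 and 0.18 in WT and 0.07, 0.15, 0.49 and -0.14 in SHIVA livers. The spread within each genotype exceeded 0.6 log2 units. Creb3l3 ran differently, with its highest value in WT replicate 2 and its lowest in SHIVA replicate 1.

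**Figure D3:**
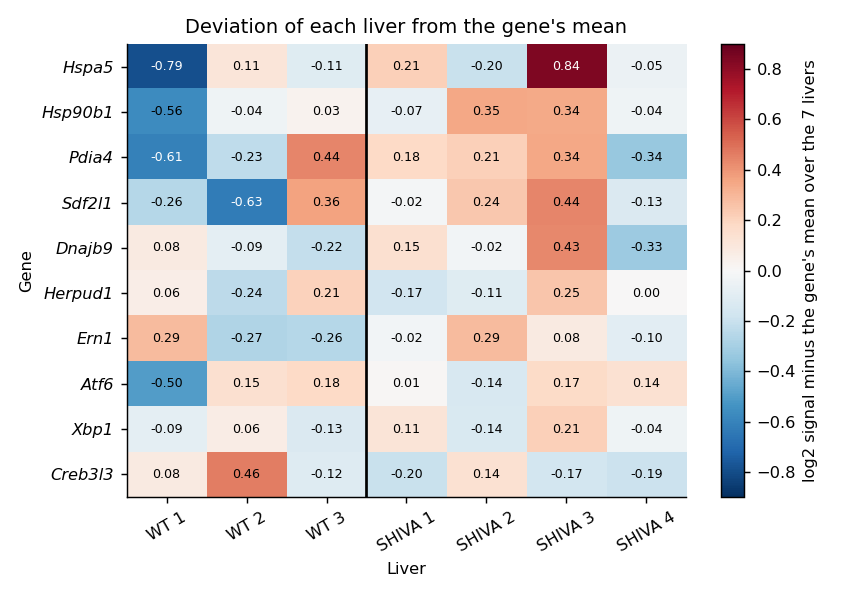
Log2 signal of each gene minus its mean over the 7 livers, in colour and in numbers, with WT livers left and SHIVA livers right of the line. WT replicate 1 is low for Hspa5 (-0.79), Pdia4 (-0.61) and Hsp90b1 (-0.56), and SHIVA replicate 3 is high for Hspa5 (0.84).

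Among the other 20011 genes tested, the profile most like that of Hspa5 over the 7 livers was that of Manf, which encodes a secreted ER stress protein (Pearson r = 0.963, Spearman rho = 1). Manf measured 8.76, 9.30 and 9.16 in WT and 9.44, 8.99, 10.25 and 9.25 in SHIVA livers, so WT replicate 1 was its lowest and SHIVA replicate 3 its highest liver as well. The transcriptional regulator Mta3 (r = 0.957, rho = 0.893) and Uggt2 (r = 0.948, rho = 0.893), a relative of the glycoprotein folding sensor, came next. Uggt2 was dim, with log2 signals from 3.08 to 4.51, and was well above background on 1 WT and 4 SHIVA arrays. Closest to Creb3l3 were Slc35f6 (r = 0.986, rho = 0.75), Eif2b3 (r = 0.985, rho = 0.643), a subunit of eIF2B, the exchange factor of the translation initiation factor eIF2, and the helicase gene Ddx24 (r = 0.981, rho = 0.929). None of these 6 genes was called. The highest of so many correlations over 7 points are a description, and their points share the livers and the normalization.

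The wider set of 143 genes in 8 lists was taken from textbook membership, with earlier results of these data known, and 137 of them were tested. Of these 1 was called, Asns, or fewer than 1 in 100, beside 0.375% of all genes. The genotypes did not overlap for 17, with 15 higher (6.15% of all genes tested) and 2 lower (6.02%) in SHIVA livers. Positive log2 fold changes were seen for 102 of 137, and the median was 0.15. At an unadjusted p under 0.05 limma gave 20 of the 137 genes, beside 13.3% of all genes: 1 chaperone, 1 degradation gene, 5 of the PERK and ATF4 branch, 2 of translocation and secretion, 0 of the RNAs cut by IRE1, 2 transducers, 4 targets of CREB3L3 and 5 acute phase genes.

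In the list of other ER chaperones and folding enzymes, 24 of 25 genes were tested and 0 were called. Their log2 fold changes were positive for 22 genes, with a median of 0.15. Canx (calnexin), which holds nascent glycoproteins, was the only gene without overlap between genotypes. It measured 10.85, 11.10 and 10.98 in WT and 11.17, 11.36, 11.24 and 11.13 in SHIVA livers, so that SHIVA exceeded WT by 0.25 on the log2 scale (SE 0.14, adjusted p = 0.493). The mean log2 signal of the 24 genes was 9.68, 9.98 and 10.08 in WT and 10.08, 10.04, 10.21 and 10.004 in SHIVA livers. WT replicate 1 was again the lowest and SHIVA replicate 3 the highest.

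Of 23 genes of ER-associated degradation 0 were called, 19 had positive log2 fold changes and the median was 0.20. Erlin1, part of a membrane complex that hands ER proteins to degradation, had the largest log2 fold change of the list. Its log2 signal was 8.69, 8.42 and 9.14 in WT and 9.71, 9.91, 9.96 and 9.77 in SHIVA livers. Every SHIVA liver exceeded every WT liver by more than 0.5, with a log2 fold change of 1.09 (SE 0.19), and the adjusted p of 0.0636 was just above the threshold. With the mean signal without background correction it passed (adjusted p = 0.0199), as it did with normexp, in the authors' table, with a filter on all arrays, and without WT replicate 3. In 11 of 17 alternatives to the main processing it was not called, for example without a filter on dim probes (adjusted p = 0.155). Of the 7 fits that left out 1 liver, it was called in 1.

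The ERSE letters were found in the promoters of 6 of 20 listed chaperone genes with an entry, Calr, Canx, Pdia6, Dnajc3, Creld2 and Ero1b, and in 2 of 17 for degradation, Syvn1 and Derl3. Of all genes with an entry 35 held the element, of which 18 were tested. Of these 18 genes, 11 had positive log2 fold changes, 0 were called, and the median was 0.10.

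The PERK and ATF4 branch held the single gene that was called. Asns, asparagine synthetase and a target of ATF4, measured 3.99, 4.91 and 3.81 in WT and 7.87, 7.04, 7.01 and 6.95 in SHIVA livers. The genotypes were more than 2 log2 units apart at their nearest, and the log2 fold change was 2.98 (SE 0.32, adjusted p = 0.0160). Asns was called in 6 of 7 fits that left out 1 liver. Without WT replicate 1 its log2 fold change was 2.86 and its adjusted p was 0.106, and without a filter on dim probes the adjusted p was 0.0900. The size of the difference moved with the background correction: it was 1.85 with the mean signal, 1.86 in the authors' table and 1.402 with normexp, where Asns was called each time.

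Eif2ak3, which encodes PERK, had a log2 fold change of 0.21 (adjusted p = 0.708), and Atf4 one of 0.04 (adjusted p = 0.956), with 13.07, 13.04 and 12.37 in WT and 13.03, 13.01, 12.83 and 12.60 in SHIVA livers. Ddit3, or CHOP, the factor linked to cell death under lasting stress, measured 6.54, 6.53 and 7.33 in WT and 7.29, 7.20, 7.35 and 6.04 in SHIVA livers. A liver of either genotype stood away from its group, and the log2 fold change was 0.17 (adjusted p = 0.880). Trib3, a pseudokinase gene induced by ATF4 and CHOP, had a log2 fold change of -0.10 (adjusted p = 0.904).

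Among all 18 tested genes of the branch, 11 had positive log2 fold changes, and the median was 0.12. The genotypes did not overlap for 5, all of them higher in SHIVA livers, beside 6.15% of all genes tested. Fgf21, on average lower in SHIVA livers (log2 fold change -2.11), was counted with the targets of CREB3L3 and is not in these counts. Vldlr, a lipoprotein receptor, measured 6.65, 7.17 and 7.29 in WT and 7.95, 8.12, 7.62 and 8.10 in SHIVA livers (log2 fold change 0.91, adjusted p = 0.133). Aldh18a1, for proline synthesis, had a log2 fold change of 0.90 (adjusted p = 0.235). It was well above background in 2 of 3 WT and in all SHIVA livers. Neither gene was called. The other 2 without overlap, named for completeness after their values were seen, were Phgdh, for serine synthesis (log2 fold change 0.77, unadjusted p = 0.00536, adjusted p = 0.193), and Atf3, a stress-induced transcription factor (0.61, unadjusted p = 0.0253, adjusted p = 0.294). Atf3 measured 5.98, 5.55 and 5.99 in WT and 6.28, 6.26, 7.003 and 6.26 in SHIVA livers, with SHIVA replicate 3 the highest.

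Of the genes of translocation and secretion that XBP1 controls, 0 of 26 were called, 18 had positive log2 fold changes and the median was 0.08. The genotypes did not overlap for 4 of 26, all higher in SHIVA livers, beside 6.15% of all genes tested. Kdelr3, a retrieval receptor for ER proteins, was not well above background on any WT array and was so on 3 SHIVA arrays. It passed the filter through SHIVA livers alone, so its place among these 4 carries little weight. Its mean signal was 1.56-fold higher in SHIVA livers, which is an estimate and not a lower bound. The log2 fold change was 0.64, with an interval from 0.13 to 1.15, and the gene was not called. The signal peptidase subunits Spcs3 and Spcs2 had log2 fold changes of 0.35 (adjusted p = 0.366) and 0.28 (adjusted p = 0.441).

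For the RNAs that IRE1 degrades, 0 of 8 were called, with 5 positive and 3 negative log2 fold changes. Sparc, a matrix protein gene of this list, was higher in all SHIVA than in all WT livers, by 0.32 on the log2 scale on average (adjusted p = 0.467). Of the other stress transducers and their processing, 0 of 11 tested genes were called and the median was 0.02. Yod1, a deubiquitinase of ER degradation, measured 5.57, 5.74 and 5.73 in WT and 6.39, 6.65, 6.55 and 6.19 in SHIVA livers (log2 fold change 0.77, SE 0.16, adjusted p = 0.108). Nfe2l1, an ER-anchored factor for proteasome genes, measured 7.55, 7.45 and 7.64 in WT and 7.13, 6.95, 7.12 and 6.99 in SHIVA livers (log2 fold change -0.50, SE 0.13, adjusted p = 0.189). The livers of each genotype lay close together for both genes, which lay on opposite sides and were not called.

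**Figure D4:**
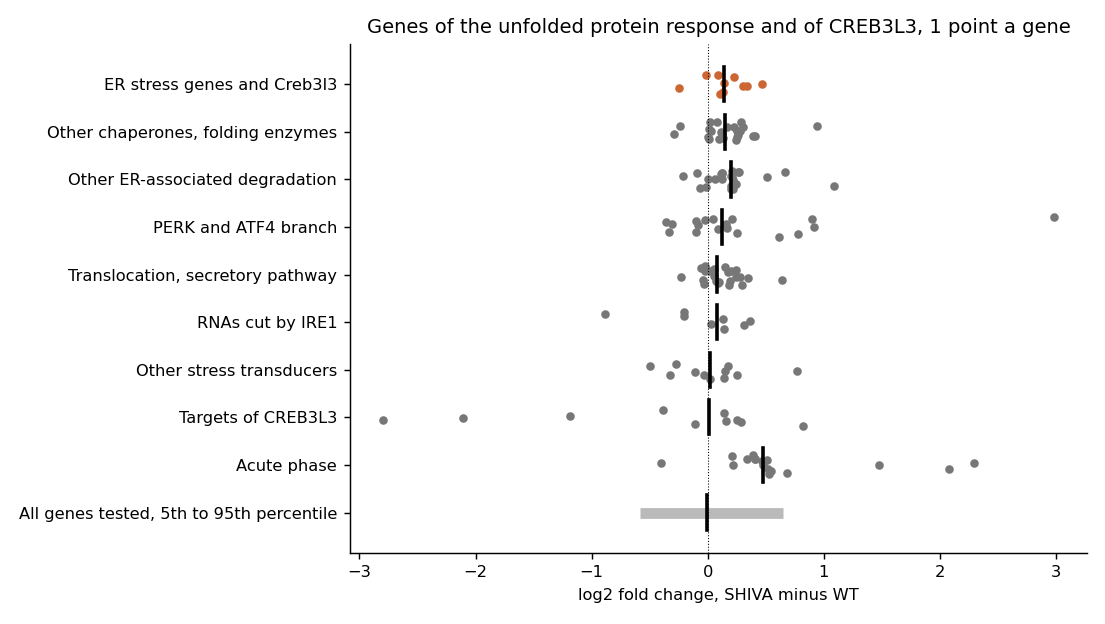
Log2 fold change of SHIVA minus WT for each tested gene of the ER stress genes and Creb3l3 (orange) and of the 8 lists (grey), with vertical bars at the medians. The grey band spans the 5th to 95th percentile of all 20012 genes tested, from -0.58 to 0.65, and all 10 orange points lie within it.

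Targets of CREB3L3 spread widely without a common direction. Of 10 genes 0 were called, 5 log2 fold changes were positive and 5 negative, and the median was 0.01. Fgf21, the fasting hormone that CREB3L3 and PPARα both induce, measured 7.30, 7.75 and 4.57 in WT and 4.36, 5.13, 3.76 and 4.47 in SHIVA livers. WT replicate 3 lay among the SHIVA livers and far below the other WT livers, and the log2 fold change was -2.11 (SE 0.70, adjusted p = 0.249). Without WT replicate 3 it was -3.09 and the gene was called (adjusted p = 0.0140). It was smaller, and not called, without WT replicate 2 (-1.50), with the mean signal (-1.46), in the authors' table (-1.46) and with normexp (-1.15). Cidec, a lipid droplet protein with the largest log2 fold change of this list, is named here after its values were seen. Its values were 6.77, 7.90 and 3.52 in WT and 3.41, 4.49, 1.74 and 3.43 in SHIVA livers, so the genotypes overlapped. It was well above background on 2 WT arrays and 1 SHIVA array. The log2 fold change was -2.79 (SE 0.99, adjusted p = 0.276), and -4.07 without WT replicate 3 (adjusted p = 0.0340). With the mean signal and in the authors' table it was -1.42 and with normexp -1.07, and it passed the filter on dim probes in 4 of the 7 sets that left out 1 liver.

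Apoa4, an apolipoprotein and a known CREB3L3 target, measured 11.55, 12.74 and 11.60 in WT and 10.84, 10.05, 10.82 and 11.39 in SHIVA livers. All SHIVA livers lay below all WT livers, with a log2 fold change of -1.19 (SE 0.37, adjusted p = 0.235). Apcs, the acute phase protein serum amyloid P, had a positive fold change. Its values were 10.92, 10.59 and 10.91 in WT and 11.91, 12.09, 11.58 and 10.93 in SHIVA livers, where SHIVA replicate 4 was barely above the highest WT liver. The log2 fold change was 0.82 (SE 0.27, adjusted p = 0.249).

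**Figure D5:**
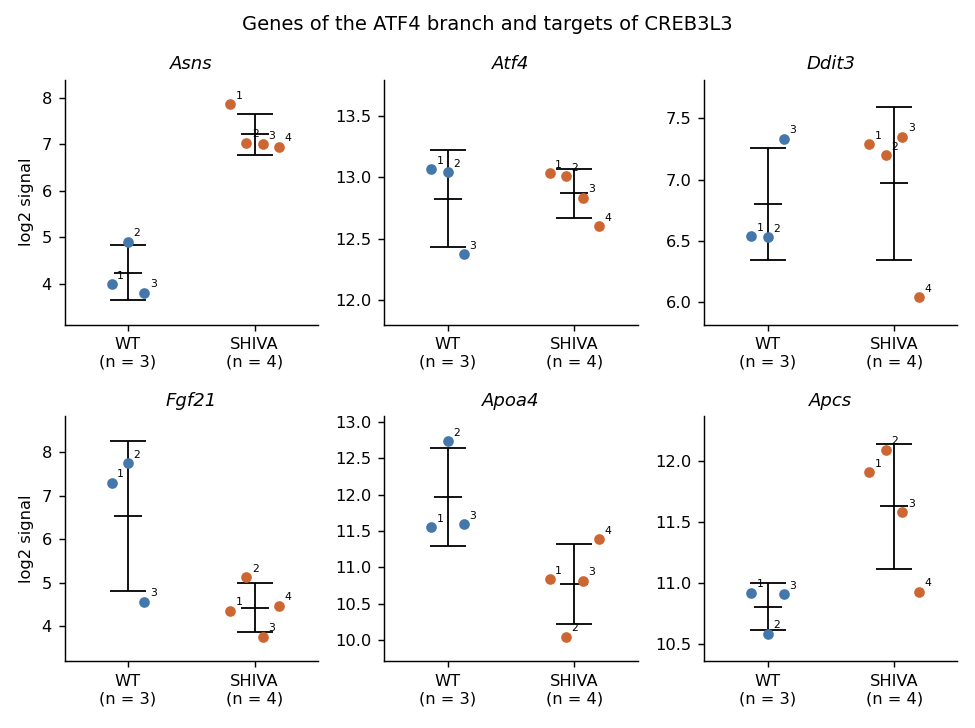
Log2 signal in single livers of fasted WT (blue, n = 3) and SHIVA (orange, n = 4) mice for genes of the ATF4 branch and targets of CREB3L3, with replicate numbers, the mean and the SD. Asns alone was called (log2 fold change 2.98); Atf4, Ddit3 and Fgf21 overlap between genotypes, and Apoa4 and Apcs do not.

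In the acute phase list 16 of 17 genes had positive log2 fold changes, with a median of 0.47, and 0 were called. Hpx (hemopexin), which binds free heme, was the gene without overlap between genotypes, with 17.21, 16.93 and 17.27 in WT and 17.59, 17.87, 17.60 and 17.36 in SHIVA livers (log2 fold change 0.47, SE 0.17, adjusted p = 0.282). Over the list the log2 of the summed signal ran from 19.54 to 19.78 in WT and from 19.77 to 20.73 in SHIVA livers, highest in SHIVA replicate 2. Saa2 and Saa1, named after their values were seen, had the largest log2 fold changes of the list (2.29 and 2.08). That liver stood apart for both. Saa2 measured 17.36 in it and 11.98 to 12.82 in the other SHIVA livers, and Saa1 17.73 against 12.82 to 13.97.

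Markers of other cells were set beside these results. All 5 neutrophil markers had positive log2 fold changes and 0 were called. Of these, 3 were well above background on all arrays. Ngp and Ltf were so on 0 WT and 3 SHIVA arrays and passed the filter through SHIVA livers alone, so their sign carries little weight. The log2 of the summed signal of the 5 markers ran from 8.68 to 10.20 in WT and from 8.41 to 11.10 in SHIVA livers. SHIVA replicate 4 had the lowest value and SHIVA replicate 3 the highest. All 5 Kupffer cell markers were positive as well, with sums from 13.80 to 14.92 in WT and 14.31 to 15.53 in SHIVA livers. Plasma cells and pancreatic acinar cells are rich in ER. Of 5 plasma cell markers 3 were well above background on all arrays, Tnfrsf17 was so on none, and their sum ran from 12.61 to 13.11 in WT and from 12.98 to 13.20 in SHIVA livers. Nearly all of that sum was Sdc1, which liver cells also express. Jchain, the joining chain of antibodies, measured 6.99, 6.05 and 6.02 in WT and 7.53, 7.64, 7.65 and 6.62 in SHIVA livers (log2 fold change 1.01, unadjusted p = 0.0139, adjusted p = 0.247), and Mzb1, an ER protein of antibody-secreting cells, differed by 0.59 (unadjusted p = 0.0409, adjusted p = 0.350). Sdc1 differed by 0.24 (adjusted p = 0.591), and Cd79a, of the same list, by -0.48 (adjusted p = 0.525). All 4 tested markers of this list overlapped between genotypes and were not called. Of 6 acinar markers the defining genes Pnlip and Cpa1 were not well above background on any array, and the sums were 8.09 to 8.76 in WT and 8.40 to 8.86 in SHIVA livers. Other lists leaned the other way. Log2 fold changes were positive for 2 of 5 sinusoidal endothelial, 1 of 5 stellate cell and fibroblast and 1 of 4 tested bile duct markers. The medians of these lists were -0.07, -0.03 and -0.64, and 0 of their genes were called. The part of these cells in the values above was not tested.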

How the data were processed

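Liver RNA of 3 WT and 4 SHIVA mice was hybridized to single-colour Agilent arrays, 1 array per mouse. The authors deposited each array's scanner output from Agilent Feature Extraction 10.5.1.1 (the version in the submitters' processing notes), with spot intensities detrended in space, without subtraction of a local background and without normalization between arrays. The deposited log2 table, which the authors quantile normalized, ranks the probes of every array as their mean signals do and was used as an alternative.

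The processed intensities were quantile normalized, put on the log2 scale and tested in R 4.3.3 with limma 3.58.1 (linear model, empirical Bayes, Benjamini-Hochberg adjustment). Control spots and the 120 to 163 spots per array flagged by the software were left out. The brightest probe stood for a gene, and genes well above background on at least 3 arrays were tested. Symbols were updated through RefSeq (GRCm38.p6) for 26407 of 55681 probes. Probe positions are those of mm9, and promoters come from RefSeq GRCm38.p6, whose table had no entry for Atf6 and 2 for Creb3l3. Among values of the genes tested 41 were missing.

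The genes and lists were chosen with earlier results of these data known. Named were all 10 genes, called genes of the lists, in each list up to 3 genes with the largest change among those without overlap, Asns, Fgf21, Ddit3, Atf4, Trib3 and Eif2ak3 as the best known genes of the ATF4 branch, and the 3 genes most like Hspa5 and Creb3l3. Nothing in the labels ties mice to litters. In a simulation of 19971 genes with 200 altered, 97% of changes by a log2 value of 2 and 49% of those by 1 were called, 6.41% of calls were unchanged genes, and 0 genes were called where nothing was altered. Alternatives were other scalings, background corrections, filters, probe rules and tests, leaving out each liver, and a replicate block. A batch term could not be fitted.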

Additional observations from a re-analysis of the deposited data

Results flagged for a closer look

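Levels in the 4 SHIVA livers were searched for a liver far from the others, by the gap to its nearest neighbour as a share of the whole range. Of 30 genes searched 3 had one, where chance gives about 1.5. SHIVA replicate 2 had a Creb3l3 log2 signal of 13.71, against 13.37 to 13.40 in its group. SHIVA replicate 1 had an Asns signal of 7.87, against 6.95 to 7.04, and all 4 SHIVA livers exceeded the WT livers. SHIVA replicate 4 had a Ddit3 signal of 6.04, against 7.20 to 7.35. The 3 WT livers were too few to be searched.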

How the results depend on the processing

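Of the ER stress genes and Creb3l3, 0 were called in any of the 17 alternatives, the methods' t-test at its unadjusted p among them, and their median log2 fold change ran from 0.10 to 0.23. With single livers left out, between 0 and 1 of them did not overlap between genotypes: Ern1 without WT replicate 1, Sdf2l1 without WT replicate 3 and Creb3l3 without SHIVA replicate 2. Fewer livers separate more easily, and the share of all genes without overlap was not counted in these fits, so these cases carry little weight. Hspa5, Hsp90b1, Sdf2l1, Ern1, Xbp1 and Creb3l3 kept their sign in every alternative. Without 1 liver Atf6 ran from -0.12 to 0.22, Pdia4 from -0.0084 to 0.51 and Herpud1 from -0.14 to 0.084 (its highest without WT replicate 3), and Dnajb9 was -0.11 on its other probe.

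The count of all genes called, 75, was 141 with the mean signal without background correction, 141 in the authors' table, 13 without a filter on dim probes, 0 with the methods' t-test after Benjamini-Hochberg adjustment and 2302 at its unadjusted p. Without 1 liver it ran from 3 (without WT replicate 1) to 416 (without WT replicate 3), with 8 without WT replicate 2, 7 without SHIVA replicate 1 and 13 without SHIVA replicate 3. Of the listed genes, 2 in place of 1 were called with the mean signal, with normexp, in the authors' table and with a filter on all 7 arrays (Asns and Erlin1), 0 without a filter and with the adjusted t-test, 17 at its unadjusted p, and 0 to 4 without 1 liver. The causes were not tested.

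The deviations of same-numbered livers correlated at -0.05, 0.01 and 0.24 for replicates 1, 2 and 3, and these correlations were not tested. The labels give no pairing, and the numbers were not taken as pairs. With the replicate block over replicates 1 to 3, 2 listed genes were called, Asns and Cidec, and 0 of the ER stress genes. The arrays' number limits what could be seen: in simulated data 49% of changes by a log2 value of 1 were called.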
